A study of Mus musculus with 12 samples.

Results

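Chromatin remodelers and histone modifiers were followed through RNA of mouse dorsal root ganglion (DRG) sensory neurons. The set held the genes whose symbols start with Smarc, Hdac, Arid or Setd, or with Kat, Kmt, Chd or Brd and a digit, pseudogenes left out, which took 58 of the 9073 genes counted. By the same symbols the annotation table used here holds 78 genes, and the other 20 were not analysed here. The symbol of 1 member, Brd3os, is that of a transcript on the opposite strand of Brd3 and is no known chromatin gene. All animals carried the genotype RPL22HA+/+;Advillin-Cre+, in which a Cre driven from the sensory neuron gene Advillin switches on ribosomal protein L22 with a haemagglutinin (HA) tag. Immunoprecipitation (IP) with an HA antibody retains RNA bound to tagged ribosomes, and Input is the lysate RNA. Neurons had received AAV-shGpr151, an adeno-associated virus with a short hairpin RNA named for the orphan receptor gene Gpr151, or AAV-control. The 4 groups were thus IP shGpr151, IP control, Input shGpr151 and Input control, with 3 columns of counts each. The series design speaks of cultured neurons from mice with a prior sciatic nerve injury, in all groups, but the extraction protocol of ganglia collected fresh. The labels of all groups call the DRG neurons adult, but give neither an exact age nor an animal for any column.

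Remodelers are ATP-driven machines that slide, evict or exchange nucleosomes, and they come as the SWI/SNF (BAF and PBAF), ISWI, CHD and INO80 families. Acetyltransferases and deacetylases add and remove acetyl groups on histone tails, methyltransferases mark lysines, and bromodomain proteins bind acetylated lysine. In injured DRG neurons this machinery is known for opening regeneration-associated genes, and export of the deacetylase Hdac5 from the nucleus after axon injury is a known step in mice.

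Columns within a group agreed to about counting noise, with a chi-square per degree of freedom of 0.98 to 1.05 in 12 pairs within groups and of 1.8 to 156 in 54 pairs between groups. The 3 columns were summed and stand for 1 library per group, so no comparison has a replicate check. The sums were 3285258 counts in IP shGpr151, 4245486 in IP control, 6148538 in Input shGpr151 and 6332991 in Input control. All 95% intervals reflect counting error only, and without molecular identifiers PCR copies may be counted more than once. Log2 ratios use library sizes scaled by TMM, the trimmed mean of M values. Called means a ratio past 1.5-fold with an interval that excludes 0, which compares these libraries and not the conditions. The 8 sensory neuron markers summed to 15300 CPM (counts scaled to the library total) in IP shGpr151 and 16000 CPM in IP control, against 1240 CPM in Input shGpr151 and 1030 CPM in Input control. Gpr151 itself had 96, 65 and 89 counts in the columns of IP shGpr151 and 107, 109 and 98 in those of IP control, a log2 ratio of 0.00 (-0.25 to 0.24). In Input it had 4, 4 and 5 counts in the library labelled shGpr151 and 10, 8 and 6 in control, a log2 ratio of -0.86 (-1.96 to 0.17). In IP the targeted transcript thus did not differ beyond counting error in the library labelled shGpr151, and in Input its interval included 0.

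The members were sparse in Input and better covered in IP. The median member had 88 counts in IP shGpr151, 103.5 in IP control, 24.5 in Input shGpr151 and 23.5 in Input control, beside medians over all genes of 88, 108, 30 and 32 in the same libraries. Of the 58 members, 25 had under 20 counts in Input shGpr151 and 24 in Input control, against 5 in IP shGpr151 and 2 in IP control. The count filter kept 53 members of the 8312 genes it kept in all. It left out Chd1l, Hdac7, Kat6a, Kmt2b and Setd6, whose sums ran from 6 to 26 counts in every library. The table lists only genes with at least 1 count in every column, so a member that was silent in any library could not be among the 58.

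**Figure D1:**
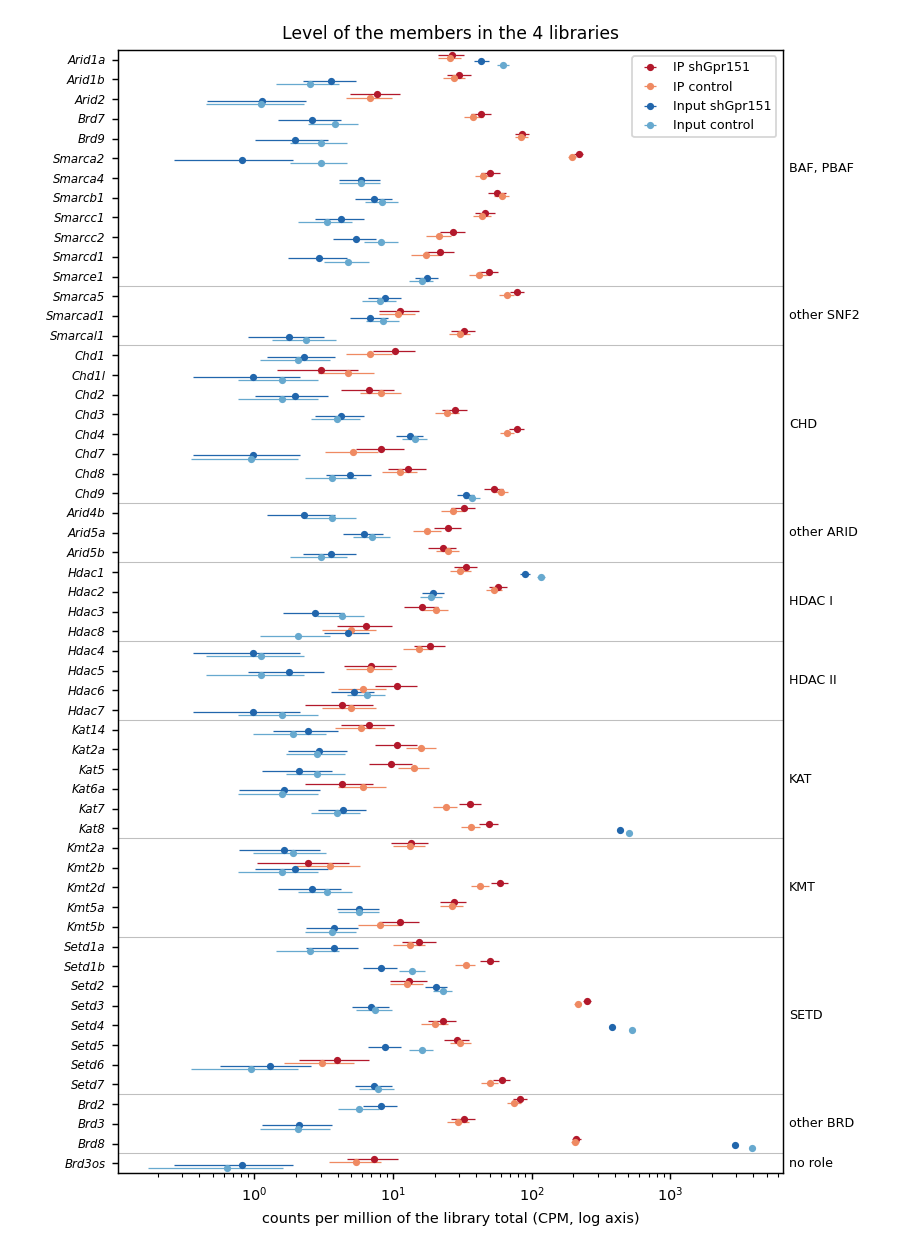
CPM (log axis) of the members in IP shGpr151, IP control, Input shGpr151 and Input control, with exact 95% Poisson intervals, grouped by role. Most members sit higher in both IP libraries than in both Input libraries, whereas Brd8, Kat8, Setd4, Hdac1, Arid1a and Setd2 sit lower in IP. On this scale of library totals most genes do so, with 80.0% of all kept genes called higher in IP in shGpr151 and 81.5% in control.

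Summed over the 58 members, the chromatin genes took 0.232% of all counts in IP shGpr151, 0.209% in IP control, 0.416% in Input shGpr151 and 0.541% in Input control. A single gene set the order of these shares. Brd8, a bromodomain subunit of the NuA4 acetyltransferase complex, had 691 counts in IP shGpr151, 878 in IP control, 17954 in Input shGpr151 and 24572 in Input control, so that 70.2% of the members' counts in Input shGpr151 and 71.7% in Input control were its own. Without Brd8 the shares were 0.211% in IP shGpr151, 0.188% in IP control, 0.124% in Input shGpr151 and 0.153% in Input control. The order of IP and Input thus turned over when 1 gene was left out.

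Which chromatin transcripts the pulldown of tagged ribosomes enriched was asked by setting IP against Input within each treatment. The members split about evenly. In shGpr151, 18 of 53 members were called higher in IP and 13 lower, that is 34.0% and 24.5%, beside 32.1% and 31.5% of all kept genes. In control, 17 were called higher and 16 lower, that is 32.1% and 30.2%, beside 30.5% and 30.7% of all kept genes. Both shares of higher members lay near those of all genes. The median member had a log2 ratio of 0.36 in shGpr151 and 0.21 in control, against 0.10 and 0.06 for the median gene of the same comparisons.

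The direction of an IP over Input ratio depends on the scale. TMM sizes lowered every ratio by 2.19 in shGpr151 and by 2.17 in control relative to library totals, so all directions are relative to that shift. On library totals alone 46 members were higher and 6 lower in shGpr151, and 45 higher and 6 lower in control, beside 80.0% higher and 10.1% lower among all kept genes in shGpr151 and 81.5% and 9.70% in control. RNA per cell and the number of cells of a type cannot be told apart in these bulk libraries.

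The ratios in shGpr151 and in control come from 4 different libraries and could be set side by side. Of the 53 members, 46 had the same sign in both treatments (86.8%), as had 85.9% of all kept genes, and Spearman's rho was 0.94 across members and 0.91 across all kept genes, a description over genes of shared libraries. In both treatments 16 members were called higher, which is 88.9% of those called in shGpr151 and 94.1% of those called in control, beside 79.5% and 83.5% for all kept genes. Another 11 were called lower in both, 84.6% of those in shGpr151 and 68.8% of those in control, beside 85.6% and 87.6% for all kept genes, so the share in control was below that of all genes. Opposite calls were rare among all genes, 12 of 8312, and 0 of the 53 members had them.

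Among subunits of BAF and PBAF, the mammalian SWI/SNF complexes, 7 of 12 members were called higher in IP in each treatment, beside 32.1% of all kept genes in shGpr151 and 30.5% in control, and they were the same 7 genes. Of all genes called higher in shGpr151, 79.5% were also called higher in control, so such recurrence was common. These were both ATPases, Smarca2 and Smarca4, the core subunits Smarcb1 and Smarcc1, the DNA-binding subunit Arid1b, and the bromodomain subunits Brd7 and Brd9. Smarca2 (ENSMUSG00000024921), which encodes the ATPase BRM, stood highest of all members in both treatments. It had 721 counts in IP shGpr151 and 826 in IP control, but 5 in Input shGpr151 and 19 in Input control. Its columns held 250, 225 and 246 counts in IP shGpr151 and 280, 267 and 279 in IP control, against 1, 3 and 1 in Input shGpr151 and 5, 8 and 6 in Input control. Every IP column thus lay far above every Input column. The log2 ratio of IP over Input was 5.88 (4.65 to 7.51) in shGpr151 and 3.85 (3.19 to 4.59) in control. Its paralog Smarca4, which encodes BRG1, had 166 and 191 counts in IP shGpr151 and IP control and 36 and 37 in Input shGpr151 and Input control, with log2 ratios of 0.92 (0.39 to 1.48) in shGpr151 and 0.77 (0.26 to 1.32) in control. The 2 interchangeable ATPases of the complex therefore had IP over Input ratios whose intervals did not overlap. How the counting divided reads between such paralogs is not stated in the sources used here.

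Brd9, the bromodomain subunit of the non-canonical form of BAF, followed with 280 counts in IP shGpr151 and 359 in IP control, against 12 in Input shGpr151 and 19 in Input control. Its log2 ratio was 3.25 (2.43 to 4.22) in shGpr151 and 2.64 (1.98 to 3.39) in control. Brd7, the matching subunit of PBAF, had 1.87 (1.12 to 2.72) in shGpr151 and 1.15 (0.53 to 1.83) in control. Arid1a, which targets the canonical complex to DNA, went the other way. It had 87 counts in IP shGpr151 and 110 in IP control, against 267 in Input shGpr151 and 394 in Input control, a log2 ratio of -2.91 (-3.27 to -2.55) in shGpr151 and -3.44 (-3.76 to -3.13) in control. Its paralog Arid1b had 0.88 (0.20 to 1.62) in shGpr151 and 1.29 (0.53 to 2.14) in control. Smarce1, an HMG-box subunit, was also called lower in both treatments, at -0.71 (-1.07 to -0.34) and -0.81 (-1.17 to -0.44). Smarce1 and Smarca5 have annotated pseudogenes, so their counts are uncertain to that extent.

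Of the other remodelers, Smarca5, the ISWI ATPase SNF2H, was called higher at 0.97 (0.54 to 1.42) in shGpr151 and 0.87 (0.43 to 1.33) in control. Smarcal1, an annealing helicase of stalled replication forks, was called higher at 1.98 (1.08 to 3.02) and 1.51 (0.73 to 2.39) in the same comparisons. Smarcad1, a remodeler of heterochromatin and broken DNA ends, was called lower at -1.47 (-2.15 to -0.80) in shGpr151 and -1.83 (-2.43 to -1.23) in control. Of the 7 kept CHD members 0 were called higher in either treatment, beside 32.1% of all kept genes in shGpr151 and 30.5% in control, while 2 were called lower in shGpr151 and 1 in control, beside 31.5% and 30.7%. Chd4, the ATPase of the NuRD repressor complex, had 257 and 283 counts in IP shGpr151 and IP control and 82 and 91 in Input shGpr151 and Input control, with ratios of 0.36 (-0.01 to 0.73) in shGpr151 and 0.04 (-0.30 to 0.40) in control that were close to the median gene. Chd9 was called lower in both, at -1.53 (-1.83 to -1.24) and -1.49 (-1.75 to -1.23), and Chd8 in shGpr151, at -0.80 (-1.51 to -0.08), with -0.53 (-1.28 to 0.25) in control. Arid4b, a subunit of the Sin3 deacetylase complex, was called higher in both, at 1.63 (0.82 to 2.55) and 0.73 (0.07 to 1.44).

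**Figure D2:**
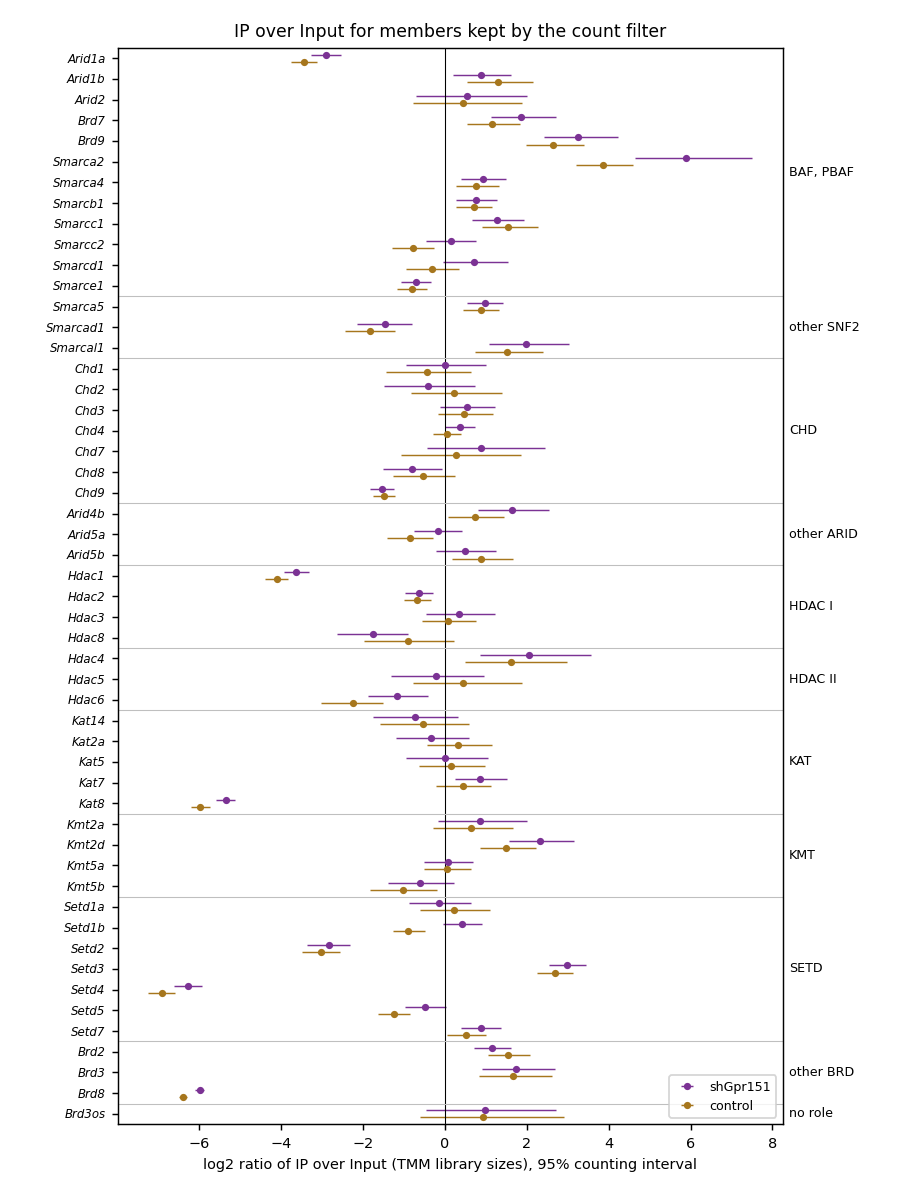
Log2 ratio of IP over Input on TMM library sizes for the kept members, in shGpr151 and in control, with 95% counting intervals, grouped by role. The ratios run from Smarca2 at 5.88 in shGpr151 and 3.85 in control to Setd4 at -6.27 and -6.91, and most members keep their side of 0 in both treatments.

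The deacetylases did not move as a class. Hdac1, a catalytic subunit of the Sin3, NuRD and CoREST repressor complexes, had 110 counts in IP shGpr151 and 130 in IP control but 555 in Input shGpr151 and 741 in Input control. Its log2 ratio was -3.63 (-3.93 to -3.33) in shGpr151 and -4.11 (-4.39 to -3.84) in control. Hdac2, its partner in the same complexes, had 189 and 227 counts in IP shGpr151 and IP control and 120 in each Input library, and was called lower at -0.63 (-0.97 to -0.29) in shGpr151 and -0.68 (-1.0 to -0.34) in control. The intervals of this paralog pair did not overlap in either treatment. Hdac3, the enzyme of the NCoR and SMRT complexes, had 53 and 86 counts in IP shGpr151 and IP control and 17 and 27 in Input shGpr151 and Input control, with ratios of 0.35 (-0.46 to 1.23) and 0.08 (-0.56 to 0.76). Among class II enzymes, which shuttle between nucleus and cytoplasm, Hdac4 was called higher in both treatments, at 2.06 (0.85 to 3.56) in shGpr151 and 1.62 (0.49 to 2.99) in control, on 6 and 7 Input counts. Hdac5 had 23 and 29 counts in IP shGpr151 and IP control and 11 and 7 in Input shGpr151 and Input control, with ratios of -0.23 (-1.32 to 0.96) and 0.45 (-0.77 to 1.89). At this depth a 1.5-fold difference of Hdac5 in either direction was not detectable. Hdac6, the tubulin deacetylase of the cytoplasm, was called lower, at -1.16 (-1.89 to -0.42) in shGpr151 and -2.25 (-3.02 to -1.51) in control.

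Of the 5 kept writers of acetyl marks, 1 was called higher and 1 lower in shGpr151, beside 32.1% and 31.5% of all kept genes. In control 0 were called higher and 1 lower, beside 30.5% and 30.7%. Kat8, the acetyltransferase of the MSL and NSL complexes, was the lower one in both. Its columns held 55, 57 and 49 counts in IP shGpr151 and 53, 54 and 48 in IP control, against 878, 938 and 878 in Input shGpr151 and 1072, 1123 and 1020 in Input control. All Input columns exceeded all IP columns, and the log2 ratio was -5.35 (-5.59 to -5.12) in shGpr151 and -5.97 (-6.21 to -5.74) in control. Kat5, the Tip60 acetyltransferase of the NuA4 complex, had ratios of 0.01 (-0.96 to 1.06) and 0.14 (-0.64 to 0.99). Kat7 was the higher one in shGpr151, at 0.85 (0.24 to 1.51), with 0.43 (-0.21 to 1.13) in control.

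Methyltransferases held the widest span of any role. Setd3, an actin histidine methyltransferase, had 823 counts in IP shGpr151 and 911 in IP control, against 43 in Input shGpr151 and 47 in Input control, with log2 ratios of 2.97 (2.53 to 3.45) in shGpr151 and 2.68 (2.26 to 3.14) in control. Setd4, another SET-domain methyltransferase, had 75 and 85 counts in IP shGpr151 and IP control, but 2362 in Input shGpr151 and 3390 in Input control. It stood lowest of all members in both treatments, at -6.27 (-6.62 to -5.94) in shGpr151 and -6.91 (-7.24 to -6.60) in control. Setd2, which methylates histones behind elongating RNA polymerase, was called lower in both as well, at -2.84 (-3.38 to -2.33) and -3.02 (-3.50 to -2.56). Kmt2d, an enhancer methyltransferase, was called higher, at 2.31 (1.57 to 3.15) in shGpr151 and 1.5 (0.85 to 2.23) in control. Kmt2a, the founding MLL enzyme, had 44 and 56 counts in IP shGpr151 and IP control and 10 and 12 in Input shGpr151 and Input control, and its ratios of 0.85 (-0.16 to 2.00) and 0.63 (-0.29 to 1.66) were not called.

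Brd2 and Brd3, bromodomain readers of acetylated histones at active promoters, were called higher in IP in shGpr151 and in control. Brd2 had 1.15 (0.71 to 1.62) in shGpr151 and 1.55 (1.05 to 2.09) in control, and Brd3 had 1.74 (0.90 to 2.69) and 1.67 (0.84 to 2.62). Brd8 had -5.99 (-6.10 to -5.88) in shGpr151 and -6.40 (-6.50 to -6.31) in control.

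Extremes were about as frequent as among other genes. IP was more than 16-fold below Input for Brd8, Kat8 and Setd4 in shGpr151 and in control alike, 5.66% of the members beside 5.10% of all kept genes. At 4-fold the count was 6 members, 11.3% beside 13.3%, with Hdac1, Arid1a and Setd2 added. In the other direction Smarca2, Setd3 and Brd9 were more than 4-fold higher in both treatments, 5.66% beside 6.45% of all kept genes. In the RefSeq annotation of GRCm38.p6, a build other than that of the counts, Brd8 overlaps the protein-coding gene Kif20a and Kat8 overlaps Prss8, as Setd3 overlaps Ccnk. In all, 10 of 58 members overlap another protein-coding gene. Strand use in counting is not stated in the sources used here, so the counts of these members are uncertain to that extent.

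Promoters of members at both ends of the IP over Input range are shown because these genes were called the same way in 2 pairs of libraries that share none. Sequences are RefSeq windows of 300 bases on GRCm38.p6, from 250 before to 50 after the start, 5′ to 3′ on the gene's strand, with each CpG dinucleotide in capitals. Where the table holds several starts, as for Setd3 and Kat8, its first was used. The first 2 belong to members more than 4-fold higher in IP in both treatments, Smarca2 on chr19:26604910-26605209 (plus strand) and Setd3 on chr12:108179235-108179534 (minus strand), and the last 2 to low members, Setd4 on chr16:93603766-93604065 (minus strand) and Kat8 on chr7:127912267-127912566 (plus strand).
Smarca2: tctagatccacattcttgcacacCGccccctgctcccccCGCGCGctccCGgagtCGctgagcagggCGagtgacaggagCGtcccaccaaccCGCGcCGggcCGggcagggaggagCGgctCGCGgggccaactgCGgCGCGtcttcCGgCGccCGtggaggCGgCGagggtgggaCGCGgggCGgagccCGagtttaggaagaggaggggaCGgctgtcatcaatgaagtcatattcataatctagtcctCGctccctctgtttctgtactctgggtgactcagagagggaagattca
Setd3: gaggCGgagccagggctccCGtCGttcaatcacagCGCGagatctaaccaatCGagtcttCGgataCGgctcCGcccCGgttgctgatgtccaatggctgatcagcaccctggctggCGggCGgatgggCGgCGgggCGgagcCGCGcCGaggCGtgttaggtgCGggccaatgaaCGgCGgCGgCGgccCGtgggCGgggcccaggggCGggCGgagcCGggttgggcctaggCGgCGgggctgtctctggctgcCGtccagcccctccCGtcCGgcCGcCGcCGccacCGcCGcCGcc
Setd4: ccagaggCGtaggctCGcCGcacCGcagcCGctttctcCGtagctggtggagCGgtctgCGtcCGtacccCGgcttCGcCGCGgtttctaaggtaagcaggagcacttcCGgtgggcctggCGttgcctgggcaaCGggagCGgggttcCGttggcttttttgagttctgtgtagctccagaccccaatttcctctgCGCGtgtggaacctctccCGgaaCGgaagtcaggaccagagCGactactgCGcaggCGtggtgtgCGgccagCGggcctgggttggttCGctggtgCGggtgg
Kat8: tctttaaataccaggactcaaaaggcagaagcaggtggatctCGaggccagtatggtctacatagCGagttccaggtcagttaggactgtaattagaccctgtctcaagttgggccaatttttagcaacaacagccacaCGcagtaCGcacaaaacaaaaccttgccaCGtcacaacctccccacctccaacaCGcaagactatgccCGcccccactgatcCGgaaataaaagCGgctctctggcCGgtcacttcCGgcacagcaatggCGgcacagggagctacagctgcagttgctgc
These windows hold 29 CpGs in Smarca2, 40 in Setd3, 29 in Setd4 and 12 in Kat8, and the 2 ends overlap in this count. Windows were found for 45 of the 58 members, with a median of 26 CpGs, beside 22 in 6610 kept genes. The 15 members with a window among those called higher in both treatments had a median of 32, and the 8 among those called lower had 21. The GC box GGGCGG, searched on both strands as were all motifs, was in 14 of those 15 windows and in 6 of those 8, beside 67.7% of kept genes. The ETS motif CCGGAAGT was in 0 of 15 and in 2 of 8, Kat8 and Setd4, beside 9.70% of kept genes. Among all 45 members the CRE motif TGACGTCA and a palindromic NRF1 motif were in 0 windows each, beside 3.56% and 2.30% of kept genes, and the E-box CACGTG was in 2, beside 10.5%. No 2 of these motifs lie within one another, and each holds a CpG, so the motif and CpG counts are not separate measures.

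Which ribosome-bound chromatin transcripts differ with the hairpin was asked by setting IP shGpr151 against IP control. Hardly any member did. In this comparison 0 of 53 members were called higher, beside 2.29% of all kept genes, and 1 was called lower (1.89%), beside 1.08%. The 1 was Kat2a, which encodes the SAGA acetyltransferase GCN5. Its columns held 12, 13 and 10 counts in IP shGpr151 and 14, 27 and 27 in IP control. The IP control columns were deeper, at 1414638 to 1415444 counts in all, against 1094523 to 1095907 in IP shGpr151. Scaled to these totals, the control column with 14 counts lay within the range of the shGpr151 columns, so the columns overlapped. The log2 ratio was -0.63 (-1.26 to -0.02). The call was lost without IP control column 2 or 3 (-0.49 for each), IP shGpr151 column 1 (-0.65) or IP shGpr151 column 3 (-0.53), and on library totals (-0.59). Kat5, of the same enzyme class, had 32 counts in IP shGpr151 and 60 in IP control, a ratio of -0.58 (-1.25 to 0.06), and was not called.

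The members nevertheless lay slightly above 0 in IP. Of 53 ratios, 38 were above 0, 71.7% beside 50.3% of all kept genes, and the median was 0.13 beside 0.00. The quartiles were 0.00 and 0.25, beside -0.16 and 0.20 for all genes, and smaller than the median counting half-width of a member, 0.41. Without a minimum fold, 5 members had intervals above 0 and 1 below, beside 9.35% and 10.8% of all kept genes. These 5 were Setd1b at 0.53 (0.20 to 0.87), Kat7, an acetyltransferase of replication origins, at 0.55 (0.16 to 0.95), Kmt2d at 0.44 (0.14 to 0.74), Kat8 at 0.38 (0.05 to 0.71) and Setd3 at 0.18 (0.04 to 0.32). The share of 5 in 53 was close to that of all genes. In the same comparison all 5 fibroblast markers were above 0 as well, with a median of 0.43 (range 0.11 to 0.50), none of them called. Medians were 0.10 for satellite glia markers, 0.01 for Schwann cell markers, -0.17 for macrophage markers and -0.09 for sensory neuron markers. The part of these cells in the members' shift was not tested. Smarca2 had 0.13 (-0.02 to 0.28), Smarca4 0.12 (-0.18 to 0.43), Smarca5 0.21 (-0.04 to 0.46) and Chd4 0.19 (-0.06 to 0.44). For these 4 well-covered transcripts every interval excluded a 1.5-fold difference. Hdac1 had 0.09 (-0.29 to 0.46), Hdac2 0.06 (-0.22 to 0.35), Hdac3 -0.37 (-0.89 to 0.14), Hdac4 0.24 (-0.29 to 0.76), Hdac5 -0.01 (-0.86 to 0.83) and Hdac6 0.76 (-0.02 to 1.55). Of these 6 deacetylases, Hdac1 and Hdac2 had intervals within 1.5-fold of no difference, and the others did not.

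The same comparison in Input, shGpr151 against control, called 1 member higher, 1.89% beside 4.32% of all kept genes, and 3 lower, 5.66% beside 4.78%. The 3 lower ones were Smarca2, Setd5 and Setd1b. Smarca2 had the 1, 3 and 1 counts of Input shGpr151 given above against 5, 8 and 6 in Input control, so the groups did not overlap, and a log2 ratio of -1.90 (-3.68 to -0.44). A sum of 5 is little above the 3 counts that are the least a listed gene can have. Setd5, a SET-domain protein mutated in human intellectual disability, had 19, 16 and 19 counts in Input shGpr151 and 30, 26 and 46 in Input control, with a ratio of -0.90 (-1.40 to -0.41). Setd1b, the catalytic subunit of a COMPASS methyltransferase complex, had 19, 15 and 16 counts in Input shGpr151 and 34, 24 and 29 in Input control, with a ratio of -0.78 (-1.31 to -0.26). For all 3 genes every shGpr151 column lay below every control column. These 3 calls held with any 1 column left out. Since the columns of a group are near copies, such column checks, here and below, reflect counting error and are no replicate check. Hdac8, a class I deacetylase that acts on cohesin, was the 1 higher, with 7, 10 and 12 counts in Input shGpr151 and 5, 3 and 5 in Input control, a ratio of 1.18 (0.19 to 2.25), and its columns did not overlap. Its call was lost without Input control column 2 (0.96) or Input shGpr151 column 3 (1.0).

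Several abundant Input transcripts were lower in shGpr151 by less than 1.5-fold with narrow intervals. Setd4 had 804, 785 and 773 counts in Input shGpr151 and 1069, 1177 and 1144 in Input control, a ratio of -0.50 (-0.58 to -0.42). Brd8 had 5924, 6023 and 6007 counts in Input shGpr151 and 8214, 8142 and 8216 in Input control, a ratio of -0.43 (-0.46 to -0.40). Columns of the 2 libraries did not overlap for either gene. Arid1a at -0.54 (-0.77 to -0.31), Hdac1 at -0.40 (-0.56 to -0.24) and Kat8 at -0.23 (-0.31 to -0.16) were lower likewise. All of these 5 genes were also among those called lower for IP over Input, in shGpr151 and in control, beside 31.5% and 30.7% of all kept genes. Narrow Input intervals need many Input counts, which also lower IP over Input, so the 2 observations are not separate. With the 3 called genes, these 5 genes make up the 8 members whose interval lay below 0, beside 13.1% of all kept genes, while 1 lay above 0, beside 11.6%. The median member had -0.11 beside -0.07 for all genes. All markers of the other ganglion cells were among the genes counted. Every gene counted has at least 1 count in every column, so none of these markers could be at 0. Satellite glia markers summed to 1020 CPM in IP shGpr151, 963 in IP control, 357 in Input shGpr151 and 360 in Input control. Schwann cell markers summed to 1400, 1240, 135 and 144 CPM in the same libraries, fibroblast markers to 709, 546, 74.7 and 92.4 CPM, and macrophage markers to 391, 380, 316 and 283 CPM. Among the 5 markers of each list, the glial genes Glul and Cdh19 were called lower in Input shGpr151 than in Input control, at -0.66 (-1.11 to -0.21) and -2.15 (-3.47 to -1.02). Fabp7 of the same satellite glia list went the other way, with 240 CPM in Input shGpr151 and 183 CPM in Input control, and was not called. The median of that list was -0.57 (range -2.15 to 0.37). The part of these cells in the Input ratios of the members was not tested either.

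Fits that treat the 12 columns as separate samples give adjusted p-values that are too small, since the columns are near copies, and are given for their counts alone at an adjusted p threshold of 0.05. In IP, edgeR's quasi-likelihood fit called 1 member higher, Setd1b, and 0 lower, beside 3.72% and 4.97% of all kept genes, and DESeq2 called 0 in either direction, beside 1.28% and 4.05%. In Input both fits called 0 members higher and the same 8 lower as above, beside 8.31% and 8.66% of all kept genes in edgeR and 7.31% and 5.99% in DESeq2. At 2-fold the counting rule called 0 members in IP, beside 0.289% higher and 0.229% lower, and in Input it called Hdac8 higher and Smarca2 lower, beside 1.59% and 2.01%.

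**Figure D3:**
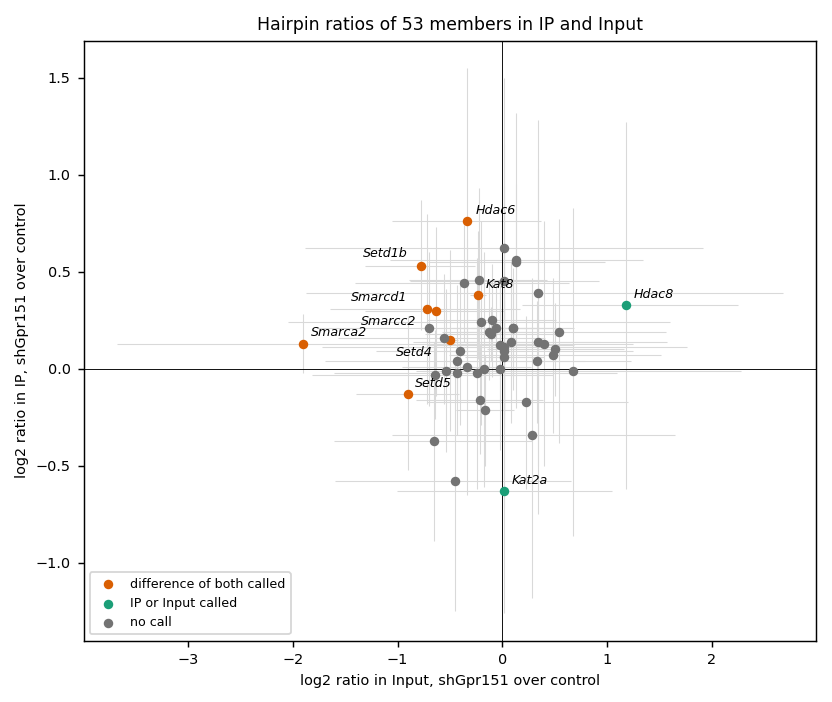
Log2 ratios of shGpr151 over control for 53 members, in Input on the horizontal and in IP on the vertical axis, with 95% counting intervals. Smarca2 stands at -1.90 in Input and 0.13 in IP, and the 8 members called for the difference of both ratios (orange, whether or not a single ratio was called) lie left of 0 on the Input axis.

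These hairpin ratios in IP and in Input share no library. Signs were the same for 29 of 53 members (54.7%) and for 42.0% of all kept genes, and Spearman's rho was 0.08 across the 53 members and -0.16 across all kept genes. No member was called in both, and of all 8312 genes only 4 were called higher in both and 4 lower in both, with 18 called in opposite directions. The ratio of IP over Input in shGpr151 minus that in control tests the difference itself, on counting error. By this measure 8 of 53 members were called higher (15.1%), beside 8.75% of all kept genes, and 0 were called lower, beside 7.13%. Without a minimum fold the counts were 11 and 0, beside 11.9% and 13.1% of all kept genes. The median member had 0.28 beside 0.06, and 40 of 53 members were above 0, 75.5% beside 53.9%. Since the members' choice was made with results of these data known, these shares are a description and not a test of the set.

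The 8 were Smarca2 at 2.04 (0.61 to 3.46), Setd1b at 1.31 (0.72 to 1.91), Hdac6 at 1.09 (0.10 to 2.08), Smarcd1 at 1.02 (0.06 to 1.99), Smarcc2 at 0.93 (0.17 to 1.69), Setd5 at 0.77 (0.16 to 1.38), Setd4 at 0.65 (0.19 to 1.10) and Kat8 at 0.62 (0.29 to 0.94). Smarca2, Smarcc2 and Smarcd1 are all subunits of BAF, the last 2 being scaffold and adaptor proteins of its core. Smarcc2 had 27, 27 and 35 counts in IP shGpr151 and 34, 34 and 23 in IP control, against 12, 9 and 12 in Input shGpr151 and 20, 16 and 16 in Input control. Its raw counts overlapped in IP and not in Input, and scaled to column totals the IP columns lay narrowly apart. Hdac6 had 8, 12 and 15 counts in IP shGpr151 and 10, 8 and 8 in IP control, against 10, 10 and 12 in Input shGpr151 and 13, 20 and 8 in Input control. Its raw counts overlapped in IP and in Input. Scaled to column totals they overlapped in Input and lay narrowly apart in IP. Setd1b had 46, 58 and 60 counts in IP shGpr151 and 46, 43 and 53 in IP control. Scaled to column totals these columns did not overlap, although the raw counts did, and the ratio was not called. Its Input counts, given above, did not overlap. The calls of Smarca2 and Setd1b held with each of the 12 columns left out in turn. Hdac6 lost its call without IP control column 2 or 3 (1.04 each), IP shGpr151 column 3 (0.87) or Input control column 2 (0.72). Smarcd1 lost it without IP control column 1, IP shGpr151 column 1, Input control column 2 or 3, or Input shGpr151 column 1 or 2, with values of 0.87 to 1.03. For Smarcc2 the columns were IP control 3, IP shGpr151 3, Input control 1 and Input shGpr151 2, with values of 0.76 to 0.81. Setd5 lost the call without IP shGpr151 column 2 (0.52) or Input control column 3 (0.49), Setd4 without IP control column 2 (0.56) or IP shGpr151 column 2 (0.40), and Kat8 without IP control column 3 or IP shGpr151 column 2 (0.57 each). At 2-fold 4 of the 8 calls were left, beside 4.36% of all kept genes higher and 2.62% lower. On the 12 columns edgeR called 5 members higher, Smarca2, Setd1b, Setd4, Kat8 and Brd8, beside 5.41% of all kept genes, and 0 lower, beside 8.82%. DESeq2 called the same genes without Setd4, beside 3.39% higher, and 0 lower, beside 8.07%.

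**Figure D4:**
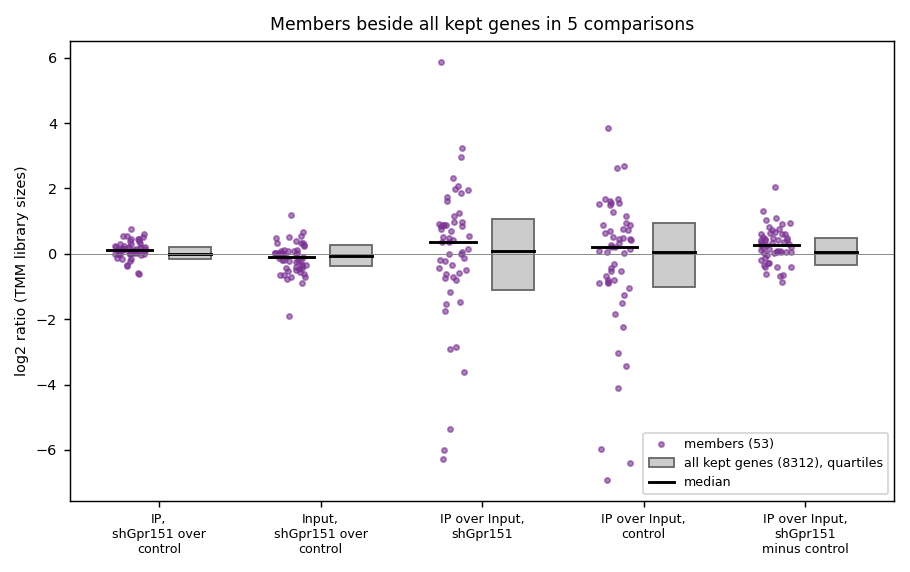
Log2 ratios of the 53 members (points, with their median as a line) beside the quartiles and median of the 8312 kept genes (box) in 5 comparisons. The members' median lies above that of all genes in IP (0.13 beside 0.00) and in the difference of the ratios (0.28 beside 0.06), and the spread is widest for IP over Input.

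Other chromatin regulators, taken from 10 lists of partners and further enzymes, gave a wider setting. Of 162 in the table, 146 were kept. In IP over Input 29 were called higher and 50 lower in shGpr151, and 28 higher and 52 lower in control, beside 32.1% higher and 31.5% lower of all kept genes in shGpr151 and 30.5% and 30.7% in control. The medians of these regulators were -0.19 in shGpr151 and -0.25 in control, beside 0.10 and 0.06 for all genes. Of 9 kept partners of BAF and PBAF, 0 were called higher in either treatment, and 6 were called lower in shGpr151 and 7 in control, among them Ss18, Pbrm1 and Bcl7a to Bcl7c. The difference between these partners and the Smarc, Arid and Brd subunits was not tested. In IP, shGpr151 against control, 6 of the 146 were called higher and 1 lower, beside 2.29% and 1.08% of all kept genes. Of the 6, 3 were lysine demethylases, out of 10 kept, and no enrichment was tested. Kdm3b, a demethylase of repressive marks, had 29 counts in IP shGpr151 and 16 in IP control, a log2 ratio of 1.19 (0.26 to 2.16). Kdm5b, which removes histone methylation at promoters, had 43 and 28 counts in these libraries and a ratio of 0.95 (0.23 to 1.69). Its relative Kdm5c, on the X chromosome, had 105 and 75 counts and 0.81 (0.37 to 1.26). The other 3 were Mta1 of the NuRD complex at 0.74 (0.09 to 1.41), Brpf1 of an acetyltransferase complex at 0.91 (0.05 to 1.81) and the Polycomb ubiquitin ligase Rnf2 at 0.69 (0.02 to 1.37). Pcgf1, a Polycomb subunit, was the lower one at -0.70 (-1.38 to -0.04).

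In Input, 3 of the 146 were called higher and 5 lower in shGpr151 against control, beside 4.32% and 4.78% of all kept genes. The lower ones were Prdm4, a PR-domain zinc finger protein, at -2.05 (-3.81 to -0.60), Actl6a, an actin-related BAF subunit, at -1.11 (-1.93 to -0.34), Ep400, the ATPase of the NuA4 complex, at -1.56 (-3.38 to -0.03), and the Polycomb genes Bmi1 at -1.15 (-2.26 to -0.12) and Pcgf3 at -1.20 (-2.51 to -0.01). Yeats4, Suz12 and Cbx6 were the higher ones, at 1.34 (0.10 to 2.74), 1.16 (0.02 to 2.40) and 0.75 (0.09 to 1.43). For the difference of the ratios, 16 of the 146 were called higher and 6 lower, beside 8.75% and 7.13% of all kept genes, with a median of 0.12 beside 0.06.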

How the data were processed

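RNA libraries were prepared with a nanopore barcoding kit for PCR-amplified cDNA, per the labels' protocols. The tools listed in the submitters' processing notes are minimap2 and Salmon, without versions, and the builds they name are GRCm39 and mm39. Values as deposited are raw whole-number counts for each gene, 1094523 to 2111544 in a column. Symbols matched 9061 of 9073 IDs. The members and lists were chosen with earlier results of these data known.

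Each group's 3 columns were summed. TMM sizes and the low-count filter (filterByExpr, minimum count 10) came from edgeR 4.0.16 in R 4.3.3. Ratios of 2 libraries have exact conditional binomial intervals (Clopper-Pearson), differences of 2 ratios have Wald intervals, and CPM values have exact Poisson intervals (scipy 1.17.1). The code for ratios of 2 libraries was tested on simulated Poisson counts, and that for differences of 2 ratios was not. Of 50 simulated 1.5-fold changes, 24 were called in IP shGpr151 over IP control and 14 in Input shGpr151 over Input control. Named in full were called members, at most 8 in each direction by size of ratio with at least 20 counts, and Hdac1 to Hdac6, Smarca2, Smarca4, Smarca5, Chd4, Kmt2a and Kat5. The values of 1 member are not reported here, and it stays in the counts and medians over members. Of each other list at most 3 called genes were to be named. Genes beyond these rules were added after their values were seen. Alternatives were RLE factors, library totals, other filters and folds, each column left out, and edgeR's quasi-likelihood test or DESeq2 1.42.0 on the 12 columns, with Benjamini-Hochberg adjustment.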

Additional observations from a re-analysis of the deposited data

Results flagged for a closer look

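For 8 members the ratio of IP over Input differed between shGpr151 and control past 1.5-fold with a counting interval excluding 0. The difference, on the log2 scale, was 2.04 for Smarca2, 1.31 for Setd1b, 1.09 for Hdac6, 1.02 for Smarcd1, 0.93 for Smarcc2, 0.77 for Setd5, 0.65 for Setd4 and 0.62 for Kat8. All 8 were positive, 15.1% of the 53 kept members beside 8.75% of all kept genes. In the other direction 0 members were called, beside 7.13% of all kept genes. With 1 library per group the difference was tested on counting error alone, not across animals or cultures.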

How the results depend on the processing

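Of the recomputed counts and medians, 158 stayed within 1.5 times the main count or the spread between columns and 60 moved, and of the recomputed ratios of called members 185 kept their call, 54 lost it and 0 turned direction. The cause of the moves was not tested. For IP shGpr151 over IP control, the main 0 members higher became 2 on library totals, 5 with no minimum fold and 1 in edgeR, and the 1 lower became 0 on library totals, with a mean of at least 20 counts, past 2-fold, in edgeR and in DESeq2; the median became 0.18 on library totals. For Input, the 1 higher became 0 with a mean of at least 20 counts, in edgeR and in DESeq2, the 3 lower became 5 with that mean, 1 past 2-fold and 8 with no minimum fold, in edgeR and in DESeq2, and the median became -0.08 with RLE factors, -0.09 on library totals and -0.24 with that mean. For IP over Input on library totals, 46 members were higher and 6 lower with a median of 2.55 in shGpr151, and 45 higher and 6 lower with a median of 2.38 in control. A mean of at least 20 counts gave medians of 0.98 in shGpr151, with 7 members lower, and 0.61 in control, and no filter gave 0.19 in shGpr151. For the difference of the ratios, the 8 higher became 4 past 2-fold, 5 in edgeR and 4 in DESeq2, and the median became 0.44 with a mean of at least 20 counts. Leaving out 1 column gave ranges of 0 to 3 higher, 0 to 2 lower and a median of 0.12 to 0.18 in IP; 0 to 1 higher, 3 to 4 lower and -0.18 to -0.04 in Input; 17 to 19 higher, 10 to 13 lower and 0.22 to 0.37 for IP over Input in shGpr151; 15 to 18 higher, 14 to 17 lower and 0.14 to 0.35 in control; and 6 to 9 higher, 0 lower and 0.19 to 0.32 for the difference. Same-numbered columns did not deviate together, with correlations of -0.0118 to 0.0185 in 18 pairs. Since columns of a group differ by about counting noise alone, these correlations cannot show whether the numbers pair the samples. With the replicate block, edgeR called 1 member higher and 0 lower in IP, 0 higher and 8 lower in Input and 5 higher and 0 lower for the difference, the same counts as without it. Input depth limits what can be seen, since 25 members in Input shGpr151 and 24 in Input control had under 20 counts.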
